A study of Mus musculus with 7 samples.

Results

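A set of 6 genes that damp signalling by G-protein-coupled receptors was followed across mouse neutrophils. They are 5 members of the regulator of G-protein signalling (RGS) family, Rgs1, Rgs2, Rgs3, Rgs18 and Rgs19, and Arrb2, which encodes a beta-arrestin. These 6 genes, of 28719 with counts in the series, were chosen by name, with a low level of Rgs2 in neutrophils of IL-1β-treated sites already seen. That Rgs2 difference is therefore described here and not tested.

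Neutrophils find a site of injury through receptors for chemokines, formyl peptides, complement fragments and lipid mediators, most of which couple to inhibitory G proteins of the Gi class. An activated receptor loads the G-protein alpha subunit with GTP, and the signal lasts until that GTP is cleaved. RGS proteins speed up this cleavage and so shorten the response of a cell to an attractant. Arrestins act one step earlier: they bind a phosphorylated receptor, block its contact with the G protein and help to draw it into the cell.

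Neutrophils (CD11b+ Ly6G+ and negative for propidium iodide) were sorted and profiled in droplets by single-cell RNA-seq with unique molecular identifiers (UMIs). Healthy wild-type male C57BL/6J mice gave blood, bone marrow and spleen in 2 runs, run 1 at 6 weeks of age and run 2 at 8 weeks, so that age and run cannot be told apart. Each healthy library pooled 3 mice, and within a run blood, marrow and spleen were taken from the same animals. In the inflammation experiment, 5 conditions in males of the same strain were marked with hashtag antibodies and pooled in 1 library, each condition again a pool of 3 mice. The mice were 8 weeks old, which for the arthritic mice was the age at the first serum injection, 7 days before sampling. The 5 conditions were healthy blood, blood of mice with K/BxN serum transfer arthritis on day 7, cells washed from the tibiotalar joints of these arthritic mice, lung lavage 3 h after 25 ng of intranasal IL-1β, and peritoneal lavage 3 h after 25 ng of intraperitoneal IL-1β. The arthritis model transfers serum from mice carrying the KRN T-cell receptor on a background with the NOD strain, so it lacks the step in which the antibodies arise. There is no replicate of an inflamed condition, so values there carry counting error only, and no test was made. Because the 5 conditions shared 1 droplet run, RNA set free in one condition can be counted in the cells of another.

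Healthy cells were kept where S100a8 and S100a9, the main neutrophil calgranulins, made up at least 3% of the UMIs. This kept 12755 of 16907 cells, between 46.2% and 94.9% of a library, with run 2 spleen the lowest. Few cells lay near the limit: the counts at 2 to 3% and at 3 to 4% were 92 and 93 cells in run 2 blood and 89 and 65 in run 2 spleen, the libraries with the most. In the inflammation library, 4852 cells assigned by the authors to a granulocyte class were kept, 292 to 2857 a condition. The kept cells held 942688 to 10293966 UMIs a library or condition, and the median cell held 775 to 2699 UMIs in the healthy libraries and 2527 to 3681 in the inflamed conditions, which were made with a later reagent version. Levels are given as CPM, the UMIs of a gene scaled to a total of 1000000 UMIs in the same cells, and healthy and inflamed libraries are set side by side without a test. All 15 neutrophil markers were detected in every library and condition, with a summed level of 161385 to 503781 CPM. B-cell markers summed to 4.47 to 942 CPM and monocyte and macrophage markers to 269 to 1391 CPM in the healthy cells kept, while erythroid markers reached 30356 CPM in blood. Libraries shared between 0 and 36 cell barcodes.

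Not every member could be read in every library. Rgs2, Rgs18, Rgs19 and Arrb2 had counts in all 7 files. The run 1 files list no gene under 11 UMIs in the whole library, and Rgs1 is absent from all 3 of them and Rgs3 from run 1 bone marrow and spleen. An absent gene there had at most 10 UMIs, which is 2.35 to 7.35 CPM of the cells kept.

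Rgs2, Rgs1 and Rgs18 are neighbours in the genome. In GRCm38, Rgs2 (chr1:143999338-144004161), Rgs1 (chr1:144242296-144249242) and Rgs18 (chr1:144752683-144775435) lie on the minus strand within 776 kb of chromosome 1, with Rgs13 and Rgs21 between them. Rgs19 lies on chromosome 2 (chr2:181688419-181693977), Rgs3 on chromosome 4 (chr4:62559847-62704001) and Arrb2 on chromosome 11 (chr11:70432635-70440828). Rgs2 is the member with the largest difference in CPM between its lowest and highest library, and the 250 bases before its RefSeq start are shown for that reason, on GRCm38.p6, chr1:144004150-144004399, minus strand, with a CCAAT box and the cyclic-AMP response element (CRE) half-sites TGACG or CGTCA in capitals.
Rgs2 promoter: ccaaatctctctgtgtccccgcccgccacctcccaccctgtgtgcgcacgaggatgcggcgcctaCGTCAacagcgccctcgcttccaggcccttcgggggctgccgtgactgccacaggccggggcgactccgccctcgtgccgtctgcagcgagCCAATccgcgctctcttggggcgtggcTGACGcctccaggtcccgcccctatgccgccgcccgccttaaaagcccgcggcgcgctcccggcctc
RefSeq places the first base of Rgs2 at 144004149, which is 12 bases inside the gene as given above from GENCODE, and distances are counted from the RefSeq start. The half-sites lie 185 and 67 bases before it, and the CCAAT box 94 bases. Of 32851 mouse promoter windows of this length, 17.8% hold at least one CRE half-site on either strand and 33.8% a CCAAT box. The GC box GGGCGG, read on both strands, occurs 4 times in this window and at least once in 32.7% of all windows. Neither an AP-1 site (TGANTCA, in 6.75% of windows) nor an NF-kB-like site (GGGA, any 4 bases, then CC, in 17.6%) has its letters in this window. These matches are a description of the sequence and say nothing of which factors bind it. Of the 6 members, 3 (Rgs2, Rgs3 and Rgs19) had an entry in the promoter table.

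Rgs2, which acts best on G proteins of the Gq class, was low in bone marrow and higher in the circulation. In bone marrow it stood at 195 CPM in run 1 and 148 CPM in run 2. Blood held 843 CPM in run 1 and 676 CPM in run 2, and spleen 361 and 686 CPM. Both blood and both spleen libraries were thus above both marrow libraries, while blood and spleen overlapped. The means were 759 ± 118 CPM in blood, 171 ± 33.4 CPM in marrow and 523 ± 230 CPM in spleen (SD, n = 2 libraries). Within a run, the level in blood was 4.32 times that in marrow in run 1 and 4.57 times in run 2. Spleen was 1.85 times marrow in run 1 and 4.64 times in run 2, so the size of the spleen difference depended on the run.

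In edgeR's quasi-likelihood test on summed counts, Rgs2 rose in blood over marrow by 1.84 on the log2 scale (SE 0.28, 3.57-fold after TMM scaling, Benjamini-Hochberg adjusted p = 0.00167). It was 1 of 4 members tested that rose in this comparison, in which 15.7% of 6588 genes rose. The call held in all 17 alternative settings run for it, the highest adjusted p being 0.0430, but the difference was 0.92 when cells with 2 or more UMIs of other lineages' markers, erythroid ones excepted, were left out, a setting added after the data were seen. Erythroid markers summed to 705 to 30356 CPM in blood against 306 to 915 CPM in marrow and 254 to 354 CPM in spleen, and platelet markers to 108 to 170 CPM in blood against 3.06 to 4.72 CPM in marrow, while monocyte and macrophage markers gave 269 to 640 CPM in blood, 1020 to 1391 CPM in marrow and 356 to 1157 CPM in spleen, with blood and marrow apart. Of the monocyte and macrophage sum, Ly6c2 alone gave 1342 and 969 CPM in marrow of runs 1 and 2. It gave 477 and 141 CPM in blood and 1097 and 221 CPM in spleen. The filter on other lineages' markers counts Ly6c2 too, and what else that filter selects was not tested. The part of cells of other lineages in the differences between tissues was not tested. Against marrow, Rgs2 in spleen rose by 1.40 (SE 0.28, 2.64-fold, edgeR adjusted p = 0.0189), the only rise among the 4 members where 4.28% of genes rose. That call was lost without run 1 blood (1.35, adjusted p = 0.0545), run 2 blood (1.33, 0.111), run 2 marrow (1.17, 0.182) or run 2 spleen (0.96, 0.155), and also without the run as a block (1.40, adjusted p = 0.236), with stricter filters on cells (1.17, 0.0611) and with absent genes entered at 10 UMIs (1.38, 0.0514). Between blood and spleen the Rgs2 difference was 0.44 (SE 0.27, adjusted p = 0.491 by edgeR).

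Rgs18, an RGS protein known from platelets and other blood cells, ran the other way. Marrow held 166 and 233 CPM in runs 1 and 2, blood 97.8 and 122 CPM, and spleen 152 and 126 CPM. Blood lay under marrow in both runs without overlap, and so did spleen, by a narrower margin in run 1. The ratio of marrow to blood was 1.70 in run 1 and 1.92 in run 2. Rgs18 fell by 1.17 on the log2 scale in blood against marrow (SE 0.30, 2.25-fold, edgeR adjusted p = 0.0164), in a comparison where 15.3% of genes fell. The call was lost without run 1 blood (adjusted p = 0.199), run 2 blood (0.121) or run 2 marrow (0.185) and without the block (0.105), always with the same sign (-1.49 to -0.76 over the alternatives of the edgeR test). In spleen against marrow the difference was -0.65 (SE 0.30, edgeR adjusted p = 0.247), in a comparison where 0.971% of genes fell. It passed the threshold without run 1 spleen (-1.26, adjusted p = 0.0116) and without the cells carrying other lineages' markers (-0.97, adjusted p = 0.00806), and shrank without run 2 marrow (-0.28, 0.981) or run 2 spleen (-0.11, 0.928).

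Rgs19, which acts on Gi-class alpha subunits, and Arrb2 were not called between the healthy tissues in the main test over all cells kept. Rgs19 stood at 145 and 117 CPM in blood, 151 and 131 CPM in marrow and 143 and 104 CPM in spleen in runs 1 and 2. The 3 tissues overlapped, and each was higher in run 1. Its blood minus marrow difference was -0.42 (SE 0.24, edgeR adjusted p = 0.207), and -0.19 without run 2 marrow. Arrb2 stood at 241 and 169 CPM in blood, 279 and 217 CPM in marrow and 268 and 165 CPM in spleen. Marrow was highest within each run, but the tissues overlapped across runs, and the blood minus marrow difference of -0.61 (SE 0.25) did not pass the test (edgeR adjusted p = 0.0936). It did pass without run 1 spleen, without run 2 spleen and without cells carrying other lineages' markers (adjusted p = 0.0211 to 0.0244), while the difference was -0.34 without run 2 marrow (0.638) and -0.48 without run 1 blood (0.472). In blood against spleen none of the 4 members was called (unadjusted edgeR p of 0.117 or more, 0 calls by DESeq2 too), in a comparison that called 0.213% of genes in either direction.

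**Figure D1:**
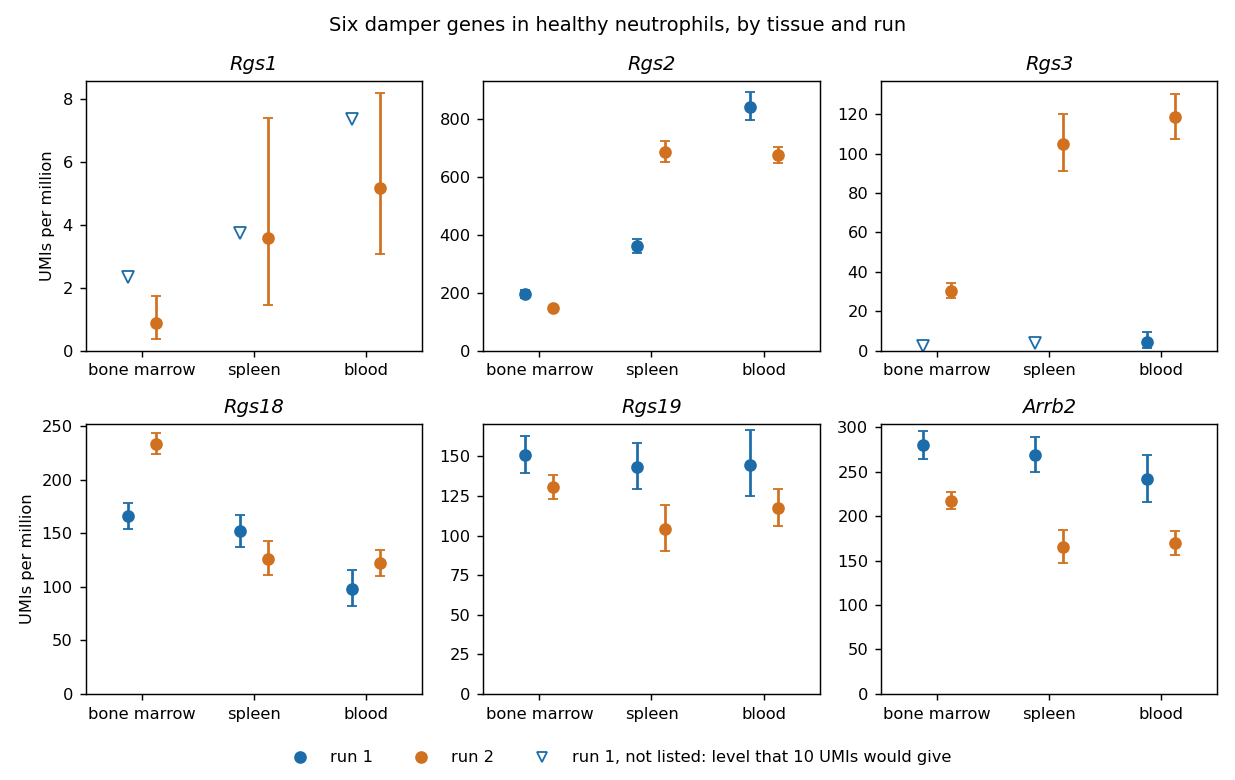
Level of each member (CPM, linear axis from 0) in the healthy libraries of blood, bone marrow and spleen, with 1 point for each library of run 1 and run 2 and exact Poisson 95% intervals for counting error. Open triangles mark the level that 10 UMIs would give for genes absent from a run 1 file. Rgs2 sits at 148 to 195 CPM in marrow and 361 to 843 CPM in blood and spleen, and Rgs18 is highest in marrow, at 166 and 233 CPM.

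Rgs3 and Rgs1 could be followed in run 2 alone. Rgs3, an RGS protein active on both Gi and Gq subunits, stood at 118 CPM in blood, 105 CPM in spleen and 30.4 CPM in marrow of run 2, with 3.89 times the marrow level in blood (counting interval 3.33 to 4.55) and 3.44 times in spleen (2.86 to 4.14). In run 1 blood it had 6 UMIs, or 4.41 CPM, against 412 UMIs in run 2 blood, and it was absent from the other run 1 files. Run 1 and run 2 thus differed far more in Rgs3 than in any other member, and the part of the counting software, whose version differed between the runs, was not tested. With the absent libraries entered at 0 UMIs the blood minus marrow difference was 1.95 (edgeR adjusted p = 0.0606), and with 10 UMIs it was 1.42 (0.0193). Rgs1, known in B cells as a brake on chemokine responses, was close to nothing in healthy neutrophils: 18 UMIs in run 2 blood (5.17 CPM), 8 in marrow (0.879 CPM) and 7 in spleen (3.58 CPM). After each cell was thinned to 500 UMIs, Rgs1 was found in 0.245% of blood, 0.0292% of marrow and 0.249% of spleen cells, and in 0 of 723 red-cell-like droplets of run 2 blood, whose exact binomial interval reaches 0.509% and so covers all 3 shares.

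Marrow holds neutrophils at many steps of maturation, and the members were therefore read in ranges of the summed share of the secondary granule genes Camp, Ngp, Ltf and Lcn2, which fade as neutrophils mature. Cells under 2% made up 34.4% and 49.9% of the marrow cells, 88.4% and 99% of the blood cells and 55.0% and 96.7% of the spleen cells in runs 1 and 2. In run 1 marrow Rgs2 stood at 107 CPM in cells with 5% or more granule transcripts, 254 CPM at 2 to 5% and 494 CPM under 2%. Run 2 marrow gave 67.8, 122 and 298 CPM. In run 1 spleen the cells at 5% or more held 124 CPM and those under 2% held 1064 CPM, and run 1 blood gave 119 and 1095 CPM. Rgs2 was thus higher at lower granule content in each library with enough cells to show it. Rgs3 in run 2 marrow was ordered alike, from 16.4 to 37.3 and 51.4 CPM. Rgs18 went from 160 to 172 and 183 CPM in run 1 marrow and from 205 to 302 and 250 CPM in run 2 marrow. Arrb2 went the other way, from 299 to 257 and 216 CPM in run 1 and from 246 to 208 and 171 CPM in run 2.

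**Figure D2:**
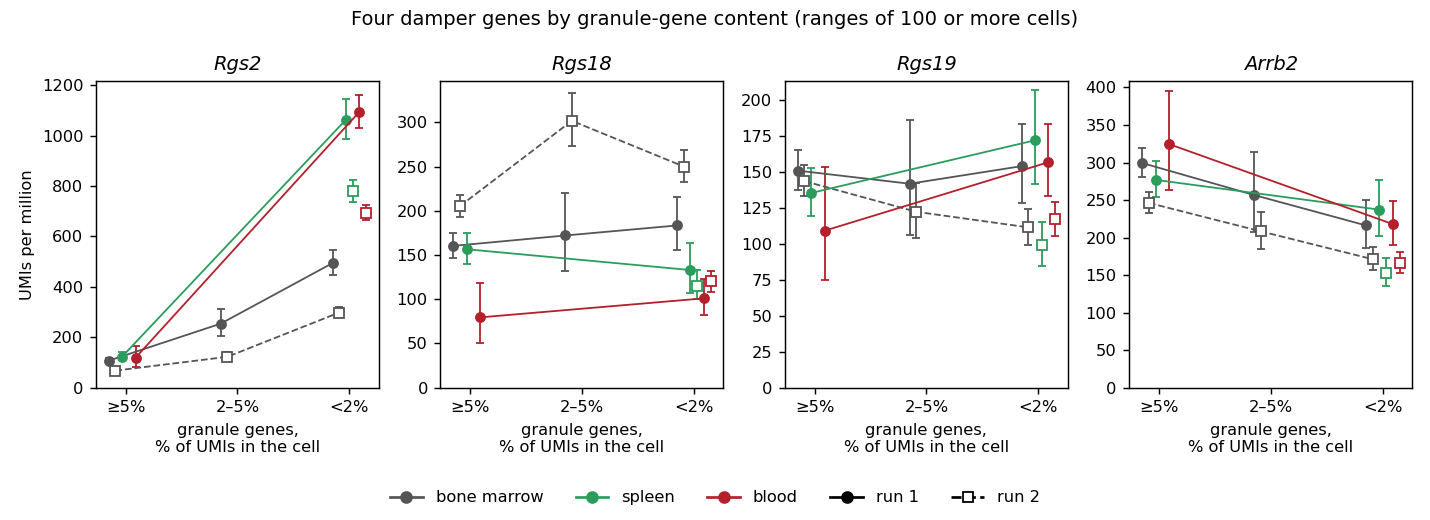
Level of Rgs2, Rgs18, Rgs19 and Arrb2 (CPM, linear axis from 0) in cells with 5% or more, 2 to under 5% and under 2% of their UMIs from Camp, Ngp, Ltf and Lcn2, for each healthy library and for ranges with 100 cells or more. Bars are exact Poisson 95% intervals, filled circles run 1 and open squares run 2. Rgs2 in run 1 marrow stands at 107, 254 and 494 CPM, and Arrb2 in the same cells at 299, 257 and 216 CPM.

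Among cells under 2% granule transcripts, Rgs2 was again higher and Rgs18 lower in blood and in spleen than in marrow. Whether the differences changed in size from those over all cells kept was not tested. In these cells Rgs2 stood at 1095 and 695 CPM in blood, 1064 and 779 CPM in spleen and 494 and 298 CPM in marrow. Blood and spleen again lay above marrow in both runs, and now differed from each other by less than the runs did. Blood over marrow was 2.21 in run 1 and 2.33 in run 2. The difference was 0.80 for blood minus marrow (SE 0.20, edgeR adjusted p = 0.0182) and 0.87 for spleen minus marrow (SE 0.20, adjusted p = 0.0138). Rgs2 was the 1 member that rose, where 7.53% of 5753 genes rose in blood and 6.08% in spleen. Its call in blood was lost without either blood library (0.84, adjusted p = 0.178 without run 1 and 0.80, 0.196 without run 2) or either marrow library (0.83, 0.0938 and 0.78, 0.120). In spleen it was lost without either marrow library (0.90, adjusted p = 0.0653 for run 1 and 0.86, 0.104 for run 2) or either spleen library (0.89, 0.0525 and 0.87, 0.0644). Without the run as a block, Rgs2 gave edgeR adjusted p = 0.225 for blood and 0.214 for spleen.

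In the same low-granule cells Rgs18 stood at 101 and 120 CPM in blood, 133 and 115 CPM in spleen and 183 and 250 CPM in marrow. Both marrow libraries were above all 4 others. Rgs18 fell 2.56-fold in blood (SE 0.22 on the log2 scale, edgeR adjusted p = 0.00136) and 2.30-fold in spleen (SE 0.22, adjusted p = 0.00429), where 8.01% and 6.57% of genes fell. These calls were lost without run 2 blood (-1.45, adjusted p = 0.0786) and without run 2 spleen (-0.78, 0.107), and without the block (0.0854 in blood and 0.137 in spleen). Rgs19 in blood was 1.02 times marrow in run 1 and 1.05 times in run 2 by CPM but -0.34 on the log2 scale after TMM scaling (SE 0.20, edgeR adjusted p = 0.289), so its direction turned on the scaling. Arrb2 differed by -0.40 after TMM scaling in blood and in spleen (edgeR adjusted p = 0.187 and 0.231), but its run 1 levels by CPM were 1.01 times marrow in blood and 1.10 times in spleen. Between blood and spleen the 4 members differed by at most 0.15 (adjusted p = 1.00 by edgeR, unadjusted p of 0.509 or more) and none was called, in a comparison that called 0.0695% of genes.

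Rgs2 was found in many more neutrophils of blood and spleen than of marrow. After thinning to 500 UMIs a cell, 36.6% and 28.9% of blood cells in runs 1 and 2 held an Rgs2 UMI, against 11.9% and 9.87% in marrow and 25.6% and 32.3% in spleen (52.7% and 44.7%, 43.9% and 30.2%, 51.3% and 46.1% unthinned). Red-cell-like droplets of run 2 blood, with haemoglobin at 20% or more of their UMIs and a median of 2753 UMIs, held one in 1.80% (exact binomial interval 0.961 to 3.06%), and Rgs18, Rgs19, Arrb2 and Rgs3 UMIs were found in 0.277 to 0.692% of them, against 5.34 to 8.25% of the neutrophils of that library. Haemoglobin took 93.6% of the UMIs in these 723 droplets, which dilutes every other gene after thinning. Over the remaining UMIs alone Rgs2 stood at 461 CPM (63 UMIs, exact Poisson interval 354 to 590) against 697 CPM (669 to 725) in the neutrophils. Rgs18 was higher in the droplets, at 161 CPM (101 to 244) against 126 CPM (114 to 138). Rgs3 stood at 102 against 122 CPM, Arrb2 at 154 against 174 CPM and Rgs19 at 80.5 against 121 CPM. Apart from Rgs2, the intervals of these members overlapped between droplets and neutrophils. The droplets are thus a rough guide to free RNA in this library at most.

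The receptors, G proteins and kinases that the members act beside were read as 7 lists, of which 136 genes had counts in the series and 69 were tested. In blood against marrow 22 of the 69 rose and 6 fell, where 15.7% of all genes tested rose and 15.3% fell, with a median difference of 0.20 against -0.0014 over all genes. Of 18 chemoattractant and lipid receptors, 10 rose and 4 fell, and 5 of 8 receptor kinases and arrestins rose, while 1 of 6 other RGS-domain genes rose. Among the largest differences by edgeR were the G-protein gamma subunit Gngt2 (3.17, adjusted p = 0.000206), the chemokine receptor Cxcr1 (3.13, 0.00231), the cyclic-AMP phosphodiesterases Pde4d (-2.82, 0.00645) and Pde4b (2.54, 0.00132), the arrestin-fold genes Arrdc3 (2.37, 0.000371) and Txnip (2.27, 0.000892) and the nucleotide receptor P2ry13 (2.25, 0.00131). Arrb2 is itself in the arrestin family but was not among the genes called. Without run 2 blood the calls of Cxcr1 (2.86, adjusted p = 0.0989) and Pde4d (-1.88, 0.118) were lost, and without run 2 marrow the differences were 1.82 for Cxcr1 (0.0216) and -1.78 for Pde4d (0.00252), which reached -4.48 (0.0125) without run 1 blood. With cells carrying other lineages' markers left out, Cxcr1 stood at 1.84, Txnip at 1.33 and Arrdc3 at 1.21, each still called by edgeR (adjusted p of 0.0197 or less). Without the block the calls were lost of Cxcr1 (0.0792), Pde4d (0.162), Pde4b (0.177) and Arrdc3 (0.121). In spleen against marrow 11 of the 69 rose, where 4.28% of all genes did, among them Gngt2 (2.49, edgeR adjusted p = 0.00231; 0.205 without the block). Cxcr1 was called there as well (2.23, adjusted p = 0.0428) but lost the call in 11 of 17 alternatives, the edgeR value being 0.93 (0.776) without run 2 marrow, 1.32 (0.621) without run 2 spleen, 2.17 (0.0835) without run 1 blood and 2.16 (0.180) without run 2 blood.

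Under 2% granule transcripts, 13 of 63 pathway genes rose in blood and 5 fell, where 7.53% of all genes rose and 8.01% fell. Gngt2 (2.36, edgeR adjusted p = 4.25e-05), Cxcr1 (1.68, 0.0121), P2ry13 (1.61, 0.00101) and Pde4b (1.29, 0.00229) rose there, as Rgs2 did. The sphingosine phosphate receptor S1pr4 (-1.52, adjusted p = 0.00118) and the formyl peptide receptors Fpr2 (-1.42, 0.000733) and Fpr1 (-1.30, 0.000895) fell with Rgs18 by the same edgeR test. Cxcr1 lost its call without run 2 blood (1.12, adjusted p = 0.385) or run 2 marrow (0.76, 0.473). Without run 2 blood the edgeR adjusted p was 0.0506 for P2ry13, 0.0606 for S1pr4, 0.0786 for Fpr2 and 0.0811 for Fpr1, and without the block the calls of Cxcr1, S1pr4, Fpr2, Fpr1 and Pde4b were lost too. In spleen 10 of the 63 rose and 5 fell, where 6.08% and 6.57% of all genes did, Ccr2, a chemokine receptor known from monocytes, falling most (-5.15, edgeR adjusted p = 0.00982), Fpr1 falling by 1.58 and the platelet-activating factor receptor Ptafr rising by 1.32 (adjusted p = 0.000465 for Fpr1 and 0.000893 for Ptafr by edgeR, both 0.0723 without the block). Without the block Ccr2 gave 0.158, and its call was lost without either spleen library or run 2 marrow (edgeR adjusted p = 0.0690 to 0.109, the difference being -8.54 without run 2 spleen).

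In the inflammation library Rgs2 was high in blood and joint and low at the IL-1β sites. It stood at 1124 CPM in healthy blood (exact Poisson 95% interval 1063 to 1187, 1264 UMIs), 948 CPM in arthritic blood (912 to 986), 639 CPM in the arthritic joint (624 to 655), 104 CPM in IL-1β lung (87.8 to 123, 138 UMIs) and 80.6 CPM in IL-1β peritoneum (63.5 to 101, 76 UMIs). The intervals of lung and peritoneum overlap and those of the other conditions do not. Rgs2 was 10.8-fold lower in lung than in healthy blood (counting interval 9.02 to 12.9) and 13.9-fold lower in peritoneum (11.1 to 17.8). These 2 ratios are the ones for which the gene was chosen.

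Levels in the inflamed conditions depend on the scaling, because the median gene also had a lower CPM there. Its log2 ratio to healthy blood was -0.38 in arthritic blood, -0.46 in joint, -1.01 in lung and -1.09 in peritoneum. After TMM scaling over the 5 conditions these medians were 0.09, 0.10, -0.11 and -0.18. Relative to the median gene, the log2 ratio of Rgs2 was -2.42 in lung, -2.71 in peritoneum and -0.35 in joint. With TMM factors Rgs2 was 5.76-fold lower in lung and 7.41-fold lower in peritoneum. In arthritic blood Rgs2 was at 0.844 of healthy blood by CPM (0.789 to 0.903) and at 1.16 with TMM factors, so its direction there turned on the scaling.

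The split of all genes past 2-fold moved with the scaling as well. By CPM, 605 genes were higher and 2600 lower in lung, against 1153 and 1230 with TMM factors, and in peritoneum 536 and 2676 became 1024 and 1237. In joint 945 higher and 1919 lower became 1554 and 641, and in arthritic blood 71 and 444 became 243 and 116.

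Rgs3, Rgs18, Rgs19 and Arrb2 were lower by CPM at the IL-1β sites than in healthy blood, though Arrb2 in lung was not with TMM factors. Rgs1 was not lower there. Rgs3 stood at 177 CPM in healthy blood, 127 CPM in arthritic blood, 54.4 CPM in joint, 10.6 CPM in lung (14 UMIs) and 48.8 CPM in peritoneum (46 UMIs). Rgs18 stood at 96.0, 95.8, 50.1, 15.1 (20 UMIs) and 13.8 CPM (13 UMIs) in the same order. Rgs19 gave 145, 122, 74.5, 39.4 and 36.1 CPM. Arrb2 gave 261, 209, 227, 165 and 81.7 CPM. Each of the 4 was thus highest in healthy blood by CPM, with Rgs18 at nearly the same level in arthritic blood.

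Rgs2, chosen for its low level at these sites, is left aside here. Of 5181 genes with at least 20 UMIs in either condition, 50.2% were 2-fold or more lower in lung than in healthy blood. Among the members Rgs3 was 16.7-fold lower (counting interval 9.72 to 31.1), Rgs18 6.34-fold (3.91 to 10.8), Rgs19 3.68-fold (2.68 to 5.13) and Arrb2 1.58-fold (1.32 to 1.90). Rgs3, with 14 UMIs in lung, passed the limit through healthy blood alone. In peritoneum 53.1% of 5041 genes were 2-fold or more lower. Rgs18 was 6.96-fold lower there (3.90 to 13.5), Rgs19 4.02-fold (2.76 to 6.00), Rgs3 3.63-fold (2.62 to 5.11) and Arrb2 3.20-fold (2.48 to 4.17). Rgs18, with 13 UMIs in peritoneum, passed the limit through healthy blood alone. With TMM factors 23.7% of all genes were 2-fold or more lower in lung and 24.5% in peritoneum. Rgs3 (8.94-fold) and Rgs18 (3.40-fold) stayed past 2-fold in lung, and Rgs18 (3.70-fold) and Rgs19 (2.14-fold) in peritoneum. Rgs19 in lung became 1.97-fold and Rgs3 and Arrb2 in peritoneum 1.93-fold and 1.70-fold lower, while Arrb2 in lung turned to 1.18 times healthy blood. Relative to the median gene the log2 ratios in lung were -3.05 for Rgs3, -1.66 for Rgs18, -0.87 for Rgs19 and 0.35 for Arrb2. In peritoneum they were -0.77, -1.71, -0.91 and -0.58.

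**Figure D3:**
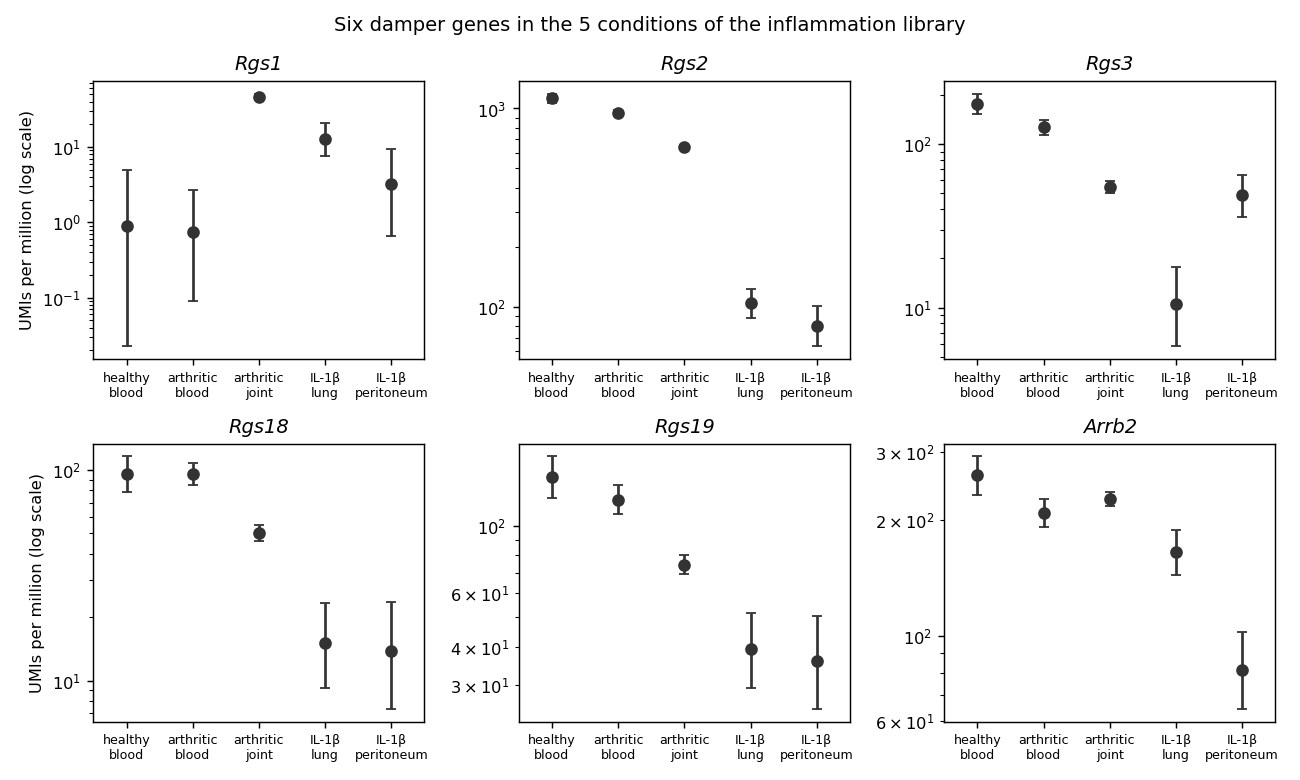
Level of each member (CPM, logarithmic axis) in the 5 hashtag conditions of the inflammation library, with exact Poisson 95% intervals for counting error and 1 pool of mice a condition. Rgs2 goes from 1124 CPM in healthy blood to 104 CPM in IL-1β lung and 80.6 CPM in IL-1β peritoneum, and Rgs1 stands at 46.5 CPM in the joint against 0.889 CPM in healthy blood.

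The lung and the peritoneum had the same agent, dose and time, and the counting intervals of 3 members excluded equal levels, as they did for 20.7% of all genes upwards in lung and 20.8% downwards. Rgs1, with under 20 UMIs at both sites, is not among the genes behind these shares. Rgs3 was 4.60-fold lower in lung (counting interval 2.49 to 9.07, 14 against 46 UMIs), in a comparison where 8.32% of 3833 genes were 2-fold or more lower. Arrb2 was 2.02 times the peritoneal level in lung (1.55 to 2.66), where 10.5% of genes were 2-fold or more higher. Over all cells kept Rgs1 was 4.04 times as high in lung (1.17 to 21.5), on 17 against 3 UMIs. With cells carrying other lineages' markers left out, erythroid ones included, lung held 7 Rgs1 UMIs (7.73 CPM, 3.11 to 15.9). Peritoneum then held 1 (2.01 CPM, 0.0508 to 11.2), and these intervals overlapped. Rgs2 was 1.30 times as high in lung (0.972 to 1.74), Rgs18 1.10 times (0.520 to 2.40) and Rgs19 1.09 times (0.695 to 1.73), and each of these 3 intervals includes equal levels.

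In arthritic blood no member with 20 UMIs or more differed 2-fold from healthy blood, where 8.94% of 5760 genes did in one or other direction. The ratios ran from 0.716 for Rgs3 (0.599 to 0.857) to 0.998 for Rgs18 (0.794 to 1.26). With TMM factors Rgs18 stood at 1.37, Rgs19 at 1.16 and Arrb2 at 1.10 times healthy blood, so the CPM direction of these did not hold, and Rgs3 stood at 0.985.

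In the joint Rgs3 was 3.25-fold lower than in healthy blood (2.75 to 3.83), the 1 member past 2-fold downwards where 24.3% of 7885 genes were. Rgs19 was 1.94-fold lower (1.63 to 2.31), Rgs18 1.92-fold (1.54 to 2.36) and Rgs2 1.76-fold (1.65 to 1.87). With TMM factors these became 2.21-fold for Rgs3, 1.32-fold for Rgs19 and 1.30-fold for Rgs18, and the log2 ratio of Rgs2 was -0.26. Arrb2 was at 0.868 of healthy blood by CPM (0.768 to 0.983) and at 1.28 with TMM factors. Against arthritic blood, the closer control, Rgs3 was 2.33-fold lower in joint (2.03 to 2.67), where 8.17% of 7894 genes were 2-fold or more lower, and Rgs2 1.48-fold lower (1.42 to 1.55).

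By CPM, Rgs1 was the only member higher in the joint than in healthy blood. It had 1 UMI in healthy blood (0.889 CPM), 2 in arthritic blood (0.743 CPM), 479 in joint (46.5 CPM, interval 42.5 to 50.9), 17 in IL-1β lung (12.9 CPM, 7.50 to 20.6) and 3 in IL-1β peritoneum (3.18 CPM). The joint was above each of the other conditions, and the lung above both bloods over all cells kept. The ratio of joint to healthy blood was 52.3 with a counting interval of 9.35 to 2072, where 12.0% of genes were 2-fold or more higher, and that of joint to arthritic blood was 62.7 (17.3 to 519), where 15.9% were. With TMM factors joint over healthy blood was 77.0. With cells carrying 2 or more UMIs of other lineages' markers, erythroid ones included, left out, the joint held 346 Rgs1 UMIs (50.3 CPM, interval 45.1 to 55.9), arthritic blood 1 (0.719 CPM) and healthy blood 0, for which the exact Poisson interval reaches 5.61 CPM. The lung then held 7 (7.73 CPM, 3.11 to 15.9), and its interval overlapped those of healthy blood and arthritic blood (up to 4.01 CPM). Over all cells kept, lung over healthy blood was 14.5 (2.27 to 605), resting on 17 UMIs against 1. After thinning to 1000 UMIs, 2.56% of joint cells held Rgs1 (2.00 to 3.22%) and 6 of 286 lung cells did (0.774 to 4.51%), against 0 of 354 cells in healthy blood and 0 of 674 in arthritic blood, for which the exact intervals reach 1.04% and 0.546% (5.11, 2.89, 0.196 and 0.246% unthinned).

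Rgs1 in the joint was concentrated in few cells. Its 479 UMIs lay in 146 of 2857 cells (5.11%), at 3.28 UMIs a positive cell and up to 29 in one, with a variance of 7.48 times the mean. By contrast the 560 Rgs3 UMIs of the joint were spread over 458 cells with at most 4 in one (variance 1.24 times the mean), and the 516 Rgs18 UMIs over 406 cells (1.40 times). The 29 cells with 5 or more Rgs1 UMIs, a limit chosen after the values were seen, held 266 UMIs, or 55.5% of all.

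Neutrophil markers were high in these cells and those of other lineages low. Neutrophil markers summed to 160666 CPM in the 29 cells and 180333 CPM in the 2711 joint cells without Rgs1, with medians of 3807 and 3524 UMIs a cell. Monocyte and macrophage markers summed to 227 and 301 CPM, with 5 and 11 of 11 markers detected, and B-cell markers to 34.9 and 51.5 CPM, with 1 and 6 of 10 detected. T-cell markers gave 52.4 CPM, or 6 UMIs, against 13.9 CPM, and NK-cell, erythroid and platelet markers had no UMI in the 29 cells. Rgs2 stood at 631 CPM in joint cells without Rgs1 (616 to 647), 740 CPM in the 117 cells with 1 to 4 Rgs1 UMIs (662 to 826) and 934 CPM in the 29 cells (766 to 1129). These intervals cover counting error only, and the joint cells varied more, with a variance of 2.98 times the mean for Rgs2. Whether Rgs2 differed with Rgs1 was not tested. The intervals of Rgs3, Rgs18, Rgs19 and Arrb2 overlapped between cells with and without an Rgs1 UMI, Rgs18 for instance at 59.8 CPM (41.1 to 83.9) and 49.6 CPM (45.3 to 54.2).

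**Figure D4:**
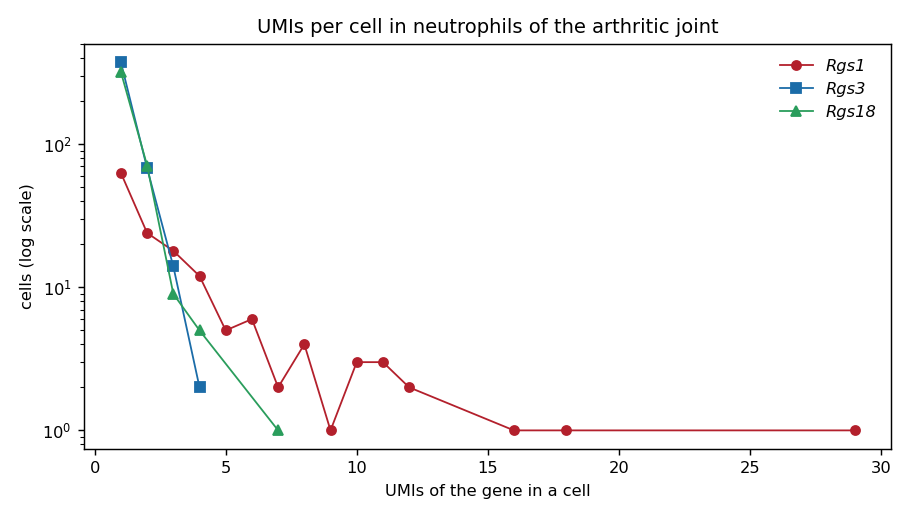
Number of joint cells (logarithmic axis) against the UMIs of a gene in the cell, for Rgs1, Rgs3 and Rgs18, which have 479, 560 and 516 UMIs in all in the 2857 cells. Cells without a UMI are not drawn, and lines join the points of a gene. Rgs1 reaches 29 UMIs in a cell, Rgs3 4 and Rgs18 7.

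Lists of other G-protein genes were read at the IL-1β sites over genes with 20 UMIs in either condition. A gene can pass this limit through the condition where it is high alone, as Rgs3 did through healthy blood against lung, Rgs18 through healthy blood against peritoneum, and Gpr84, Adora3 and P2ry14 through the inflamed site, so the counts describe the genes that passed and no more. Of the chemoattractant and lipid receptors with 20 UMIs or more, 11 of 21 were 2-fold or more higher in lung than in healthy blood and 4 lower, and 10 of 20 were higher and 4 lower in peritoneum. Of all genes 11.7% were higher in lung and 10.6% in peritoneum. Of the other RGS-domain genes 4 of 5 were lower in lung and 5 of 5 in peritoneum, and of the receptor kinases and arrestins 5 of 8 were lower at each site and 1 higher, where 50.2% and 53.1% of all genes were lower. With TMM factors 15 receptors were higher and 2 lower in lung, where 22.3% of all genes were higher and 23.7% lower, and 13 and 2 in peritoneum, where 20.3% and 24.5% were. The other RGS-domain genes 2-fold or more lower came down to 1 of 5 in lung, Rgs14, and 2 of 5 in peritoneum, Rgs14 and Akap10. Of the kinases and arrestins 4 were then lower and 2 higher in lung, 3 and 2 in peritoneum.

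The largest upward ratios at both sites were those of receptors. In lung the fatty-acid receptor Gpr84 was 31.9 times healthy blood (counting interval 15.3 to 80.1), the adenosine receptor Adora3 27.0 times (10.3 to 101), the atypical chemokine receptor Ccrl2 23.2 times (15.6 to 36.0) and the nucleotide sugar receptor P2ry14 17.9 times (2.88 to 739, 21 against 1 UMIs). Rgs14, another RGS-domain gene, was 8.84-fold lower there, and S1pr4 was 11.2-fold and the phospholipase Plcb2 8.93-fold lower, on 4 and 5 UMIs. The kinase gene Pik3cb had 3 UMIs in lung against 61 in healthy blood (ratio 0.0419, 0.00840 to 0.128). In peritoneum Gpr84 was 57.1 times healthy blood, Ccrl2 30.1 times, Adora3 28.3 times and Fpr1 6.08 times (5.19 to 7.17). Arrdc3 was 12.7-fold, Rgs14 8.56-fold and the receptor kinase Grk6 6.12-fold lower there, and the protein kinase gene Prkaca had 0 UMIs against 26 (ratio up to 0.182).

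In the joint 7 of 86 pathway genes were 2-fold or more higher than in healthy blood and 29 lower, where 12.0% and 24.3% of all genes were. With TMM factors the split turned round, to 22 of 86 higher and 9 lower, as it did for all genes, at 19.7% and 8.13%. By CPM, Ccrl2 was 30.6 times healthy blood, Rgs10 11.7 times (3.95 to 56.8, 320 against 3 UMIs), the orphan receptor Gpr35 11.5 times, S1pr1 6.78 times (62 against 1 UMIs) and the hydroxycarboxylic acid receptor Hcar2 6.38 times. S1pr4 was 8.48-fold, Grk6 4.41-fold and the alpha subunit gene Gna11 4.19-fold lower. Rgs1 and Rgs10 were thus the 2 RGS-domain genes past 2-fold upwards in the joint among the members and the other RGS-domain list. Both passed the limit of 20 UMIs through the joint alone, as S1pr1 did. The joint held 10293966 UMIs against 1124877 in healthy blood, so these counts describe the genes that passed and no more. In arthritic blood 4 of 67 were lower, where 7.71% of all genes were, Axin1 2.81-fold, Snx14 2.39-fold, Gnaq 2.20-fold and Gngt2 2.04-fold, and the median of the 67 was -0.38 as for all genes. With TMM factors Axin1 alone of the 67 stayed 2-fold lower, where 2.01% of all genes were.

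**Figure D5:**
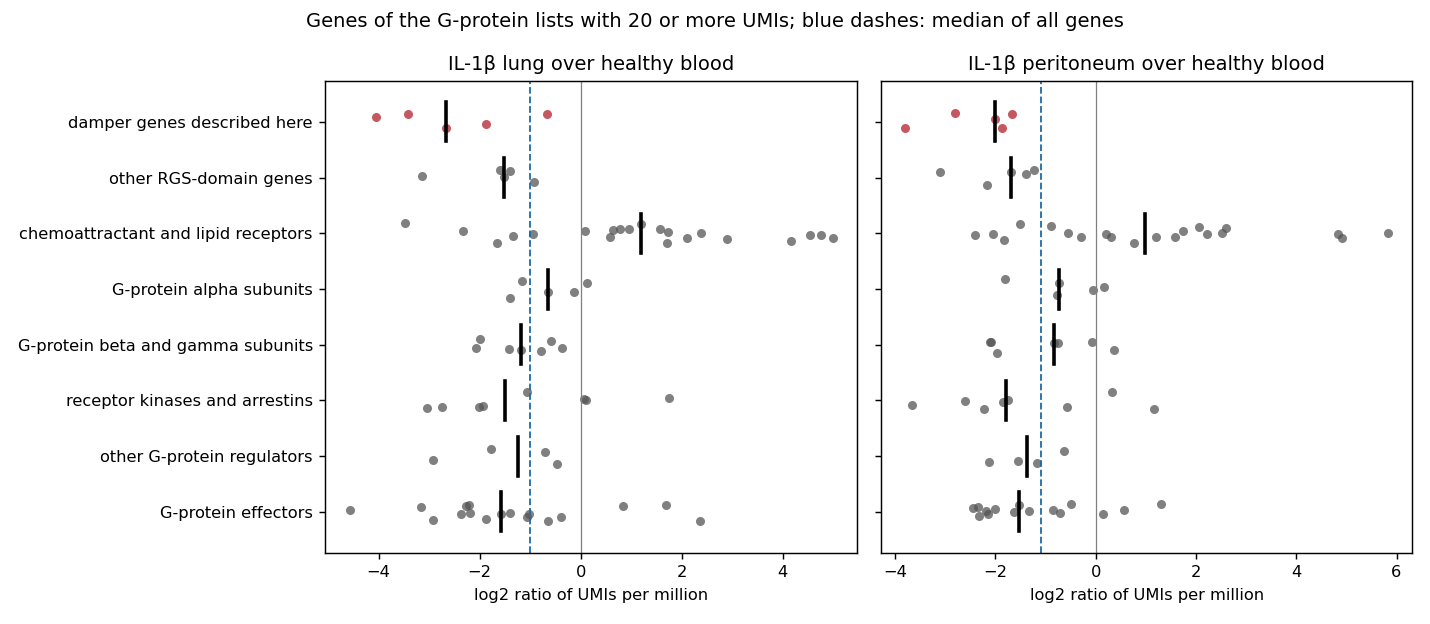
Log2 ratio to healthy blood of genes with 20 UMIs or more in IL-1β lung and IL-1β peritoneum, grouped into the members and the lists of other G-protein genes, with a point for each gene, black bars for list medians and blue dashes for the median of all genes. The bars cover only genes past the UMI limit, and the members' bars include Rgs2, which was chosen for its low level there. The dashes lie at -1.01 and -1.09, and the receptors range widely about them.

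Some genes followed a member closely across the 6 healthy libraries and 5 conditions. Likeness was the Pearson correlation of log2(CPM + 10) over these 11 points, among 2000 genes with a mean of 50 CPM or more, and is a description, since the points share libraries, runs and base scaling. The genes most like Rgs2 were Slc40a1 (r = 0.98), Erp29 (r = 0.98) and Fuca1 (r = 0.97). These correlations draw on the IL-1β sites, for whose low level Rgs2 was chosen. Rgs18 was nearest to Tcp11l2 (r = 0.98), Bub3 (r = 0.97) and Rnf115 (r = 0.96). Rgs19 was nearest to Hhex (r = 0.98), Slc25a11 (r = 0.98) and Mapk3 (r = 0.97), and Arrb2 to Vdac2 (r = 0.96), Fermt3 (r = 0.94) and Ppib (r = 0.88). Slc40a1, which encodes an iron exporter, stood at 805 CPM in healthy blood, 46.9 CPM in lung and 67.9 CPM in peritoneum, beside 420 and 465 CPM in blood and 114 and 107 CPM in marrow of runs 1 and 2. No likeness was computed for Rgs1 and Rgs3, which were not read in all libraries.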

How the data were processed

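The authors aligned reads to mm10 with Cell Ranger (run 1 with version 1.2.0, run 2 with 2.1.0, the hashtagged conditions with 3.0.2) and deposited UMI counts per gene and cell, not normalised. They also deposited a table that gives each inflammation cell its hashtag condition and ImmGen reference class, with hashtag doublets removed. Doublets within a condition remain, and no doublet caller was run here. The lowest count of a gene listed in the run 1 files is 11 UMIs, and the run 2 files list 28692 genes.

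Counts of the kept cells were summed per library. The 6 healthy sums were fitted in edgeR 4.0.16 (R 4.3.3; TMM factors, filterByExpr, quasi-likelihood test, run as a block) and p-values adjusted by Benjamini-Hochberg over all 6588 genes (5753 for cells under 2% granule transcripts), with 0.05 as the threshold. Alternatives were DESeq2 1.42.0, other scalings, filters on cells and genes, and leaving out each library. Run numbers pair the samples, since a run's blood, marrow and spleen share their animals. Deviations from group means correlated across genes (Pearson r 0.683, 0.685 and 0.656). The tissues of a run also share their age and software version, so this correlation cannot show pairing by animal. With 2 libraries a tissue, each a pool, p-values measure the spread between pools. The script was tested on simulated data. Inflamed conditions have 1 pool each and got exact 95% Poisson or conditional binomial intervals, which cover counting error only, and ratios only where either side had 20 UMIs or more unless said otherwise. Shares of cells used thinned counts, 500 UMIs for healthy and 1000 UMIs for inflamed cells, leaving out 26 shallower healthy cells, all in run 1 blood, and 61 to 155 of each inflamed condition.

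Members and gene lists were chosen with earlier results of these data known. All 6 members are given. Of the other lists, up to 8 genes a comparison were eligible by size of change among those called, or, without a test, among those past 2-fold. A result for one gene of these lists is not reported here.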

Additional observations from a re-analysis of the deposited data

Results flagged for a closer look

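Rgs1 gave a signal among healthy cells that the comparisons leave out. The 2343 spleen cells of run 2 under the 3% limit on S100a8 and S100a9 held 47 Rgs1 UMIs, or 11.3 CPM (exact Poisson 95% interval 8.31 to 15.0), above the 3.58 CPM (1.44 to 7.37, 7 UMIs) of the 2010 spleen cells kept. B-cell markers summed to 10875 CPM and T-cell markers to 2746 CPM in the cells left out, with 10 of 10 and 11 of 11 markers detected, against 4279 CPM for the 15 neutrophil markers. Their part in the Rgs1 level was not tested.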

How the results depend on the processing

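The number of genes called in blood against marrow was 2047, and 254 without the run as a block (no pairing by replicate), 1324 by DESeq2, 1237 without cells carrying other lineages' markers, and 377 to 2503 when 1 library at a time was left out. In spleen against marrow 346 became 0 without the block, 182 with filters on cells, 215 and 204 with absent genes at 0 and 10 UMIs, 897 without other markers, and 44 to 987 leaving out a library. In blood against spleen 14 became 0 without the block, 31 by DESeq2, 64 and 31 at S100 limits of 1% and 10%, 2 with cell filters, 4 and 0 with absent genes at 0 and 10 UMIs, 2 without other markers, and 0 to 232 leaving out a library. Under 2% granule transcripts, 894, 728 and 4 genes became 58, 0 and 0 without the block, and 138 to 1088, 258 to 901 and 0 to 66 leaving out a library. In arthritic blood 515 genes past 2-fold became 326 without S100 and granule genes. The cause was not tested.

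Some differences between blood and spleen, none of them called, changed sign. Leaving out 1 library at a time, Rgs18 ran from -1.05 to 0.094, Rgs19 from -0.37 to 0.30 and Arrb2 from -0.55 to 0.17, with run 2 spleen left out at the lower and run 1 spleen at the upper end. Rgs2 stood at -0.043 without other markers. Under 2% granule transcripts Rgs18 ran from -0.58 to 0.22, Rgs19 from -0.24 to 0.35 and Arrb2 from -0.26 to 0.25, between the same libraries. Rgs19 gave -0.0027 without the block and Arrb2 0.0072 at a 1% granule limit.

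In joint, Rgs19 also passed 2-fold (-1.11 on the log2 scale) without other markers. Filtering out cells with erythroid markers could not be run, since 1 cell of run 2 blood was left. Leaving out a library leaves 1 library for its tissue, assumed to vary like the others.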

Other observations

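Rgs2 was lower at the IL-1β sites than in the joint within each of 2 ImmGen reference classes, values that share the contrast for which the gene was chosen. Cells of the synovial fluid class (GN.Arth.SynF) held 574 CPM of Rgs2 in the joint (2260 cells), 102 CPM in IL-1β lung (275 cells) and 78.7 CPM in IL-1β peritoneum (101 cells). Cells of the thioglycollate peritoneal class (GN.Thio.PC) held 872 CPM in the joint (245 cells), 157 CPM in lung (74 cells) and 58.3 CPM in peritoneum (163 cells). Within the joint the blood class (GN.Bl) stood at 876 CPM and the urate peritoneal class (GN.UrAc.PC) at 1407 CPM, against 1104 and 1302 CPM in healthy blood.

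Rgs2 was also carried by many cells at high counts in blood and joint. Cells with 3 or more Rgs2 UMIs made up 41.8% of healthy blood, 52.7% of arthritic blood and 35.7% of joint cells, against 3.16% of lung and 1.03% of peritoneal cells, at medians of 2527, 3580, 3531, 3681 and 3476 UMIs a cell. Of the 146 joint cells with an Rgs1 UMI, 123 were in the synovial fluid class, which held 2260 of the 2857 joint cells, and 27 of the 29 cells with 5 or more were.

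Rgs19 stood at 92.4 CPM in the run 2 spleen cells under the 3% limit and at 104 CPM in the cells kept, while Rgs2 stood at 85.5 and 686 CPM, Rgs18 at 21.2 and 126 CPM and Arrb2 at 53.2 and 165 CPM in the same cells.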
